A study of Homo sapiens with 4 samples.

Results

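The genes described here code for 10 regulators of G protein signalling: RGS1, RGS2, RGS3, RGS4, RGS5, RGS10, RGS12, RGS14, RGS16 and RGS19. They were taken by gene name from the 51103 genes of the deposited tables. RGS5 has 2 entries there, a protein-coding gene and an overlapping non-coding gene of the same name, so the 10 names gave 11 rows. The genes were chosen by name with the fold changes and calls of the same comparison already known, so their values are given as a description and not as a test.

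The study sequenced poly(A) RNA of the human line SCC-15, labelled as oral squamous cell carcinoma and grown in DMEM with fetal bovine serum. Of the 4 libraries, 2 came from a negative control line and 2 from a line established with a lentivirus to overexpress REEP6, a membrane protein of the endoplasmic reticulum, and all were harvested after 48 h. What the control line carries, the promoter of the transgene, whether a line was 1 clone and whether the libraries of a group were separate cultures are not stated in the labels. P-values therefore measure only the spread between these libraries, which may be technical.

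When a receptor activates a G protein, its alpha subunit binds GTP and separates from the beta and gamma subunits, and both parts then act on effectors such as adenylyl cyclases and phospholipase C. RGS proteins bind the active alpha subunit through a shared RGS domain and speed up its GTP hydrolysis, which ends the signal. RGS1, RGS2, RGS3, RGS4, RGS5 and RGS16 belong to the R4 family, most of which are small proteins with little beyond the RGS domain. RGS10, RGS12 and RGS14 form the R12 family, and RGS19, first named GAIP, belongs to the RZ family. RGS1 is best known from B and T lymphocytes, and RGS5 from pericytes.

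The 4 libraries held between 12856256 and 15208629 counts assigned to genes. REEP6 itself had 348 and 468 counts in the control libraries against 649 and 680 in the overexpression libraries, a 1.76-fold rise in the labelled direction. Of 10 squamous epithelial markers, ITGB4 had 13.1 to 18.9 FPKM and was higher with REEP6 (log2 fold change 0.44, edgeR adjusted p 0.00943), and EPCAM had 0.957 to 2.36 FPKM and did not pass. The other 8, KRT5, KRT14, KRT6A, KRT17, TP63, SFN, CDH1 and DSG3, lay between 0 and 0.173 FPKM in every library, so the squamous keratins and TP63 were absent or nearly so from a line labelled squamous. Of the 13077 genes tested, 25.0% passed an adjusted p of 0.05 in edgeR's quasi-likelihood test, 10.9% higher and 14.2% lower with REEP6. With FPKM scaled to equal sums the share of calls that were higher went from 43.4% to 19.0%, and that scaling moved the median over all genes by -0.13 on the log2 scale.

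The sequences just before the start sites of the 4 RGS genes that passed the threshold are shown because those genes moved in opposite directions. They are RefSeq sequences of the build GRCh38.p14, written 5′ to 3′ on the gene's strand, and capitals mark core promoter motifs found on either strand. The motifs were TATAAA for the TATA box that lies close to some start sites, CCAAT for the element bound by the factor NF-Y, and GGGCGG for the GC box bound by Sp1, and a match on the other strand is shown as the reverse complement. RGS1 (chr1:192575523-192575756, plus strand, ending 16 bases before the RefSeq start site) and RGS2 (chr1:192808789-192809038, plus strand) fell, and RGS10 (chr10:119542720-119542969, minus strand) and RGS19 (chr20:64079965-64080214, minus strand) rose. The RefSeq start of RGS1, 192575773, lies inside the gene as GENCODE has it, which begins at 192575727, so the last bases shown and the TATA box come after the GENCODE start. The RefSeq start of RGS19, 64079964, likewise lies inside the GENCODE gene, which begins at 64079988 on the minus strand.
RGS1: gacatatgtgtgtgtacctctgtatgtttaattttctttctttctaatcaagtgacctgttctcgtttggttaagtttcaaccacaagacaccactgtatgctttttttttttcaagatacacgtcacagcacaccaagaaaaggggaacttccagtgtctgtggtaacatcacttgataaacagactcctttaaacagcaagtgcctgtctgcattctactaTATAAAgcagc
RGS2: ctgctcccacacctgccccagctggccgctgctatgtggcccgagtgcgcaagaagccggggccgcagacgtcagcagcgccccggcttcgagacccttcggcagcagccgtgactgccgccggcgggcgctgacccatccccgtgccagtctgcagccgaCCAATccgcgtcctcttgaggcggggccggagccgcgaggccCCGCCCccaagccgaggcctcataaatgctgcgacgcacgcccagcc
RGS10: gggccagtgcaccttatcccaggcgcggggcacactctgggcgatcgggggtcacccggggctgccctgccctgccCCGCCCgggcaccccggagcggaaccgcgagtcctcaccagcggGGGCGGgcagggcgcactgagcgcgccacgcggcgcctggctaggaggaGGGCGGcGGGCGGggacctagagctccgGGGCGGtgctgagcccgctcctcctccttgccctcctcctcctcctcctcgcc
RGS19: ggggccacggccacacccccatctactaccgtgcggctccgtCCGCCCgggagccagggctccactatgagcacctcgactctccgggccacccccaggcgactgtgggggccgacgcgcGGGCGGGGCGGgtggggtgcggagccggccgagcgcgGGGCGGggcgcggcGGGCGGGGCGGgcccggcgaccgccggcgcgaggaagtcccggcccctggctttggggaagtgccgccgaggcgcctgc

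The pair that fell had unlike promoters. Over 250 bases before and 50 bases after the RefSeq start site, RGS1 had a GC content of 41.7%, below the median of 58.3% over 27305 gene promoters of the same length, and held 1 TATA box 27 bases before that start and inside the GENCODE gene, a motif found in 12% of those promoters. RGS2 had a GC content of 69.7%, above that median, with 1 CCAAT box (35.7% of promoters) and 1 GC box (44.6%). The pair that rose was also GC-rich, as RGS2 was: RGS10 had 77.3% with 5 GC boxes and RGS19 80.3% with 6, some of which overlap, and 5.22% of promoters hold at least 5. Of the members not called or not tested, RGS12 (67.7%), RGS16 (67.0%) and RGS5 (63.0%) were above the median too, with 2 GC boxes each. RGS14 (59.7%) lay above the median and RGS4 (44.7%) and RGS3 (44.0%) below it, with 0 GC boxes each. Neither the cAMP response element TGACGTCA (1.98% of promoters) nor the AP-1 site TGANTCA (7.76%) matched any of the 10 genes' windows. For genes with several listed starts (RGS3, RGS4, RGS5, RGS10, RGS12 and RGS19) the window was that of the most upstream one, and a match is a description of the letters, not of a bound site.

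Levels of RGS genes changed in both directions. RGS1 and RGS2 were much lower with REEP6, RGS10 and RGS19 were higher, and the other members tested, RGS3, RGS12, RGS14 and RGS16, did not pass the threshold. A gene was tested if it had at least 1 FPKM, fragments per kilobase of gene length scaled to the library's total, in at least 2 libraries, which 8 of the 10 genes did. Of these 8, 2 passed higher (10.9% of all genes tested) and 2 lower (14.2%), together beside 25.0% of all genes, from which nothing is read because the genes were chosen with this comparison known. Their median log2 fold change was 0.30, against -0.01 over all genes tested. In bulk RNA, fewer cells that express a gene and less RNA per cell cannot be told apart.

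**Figure D1:**
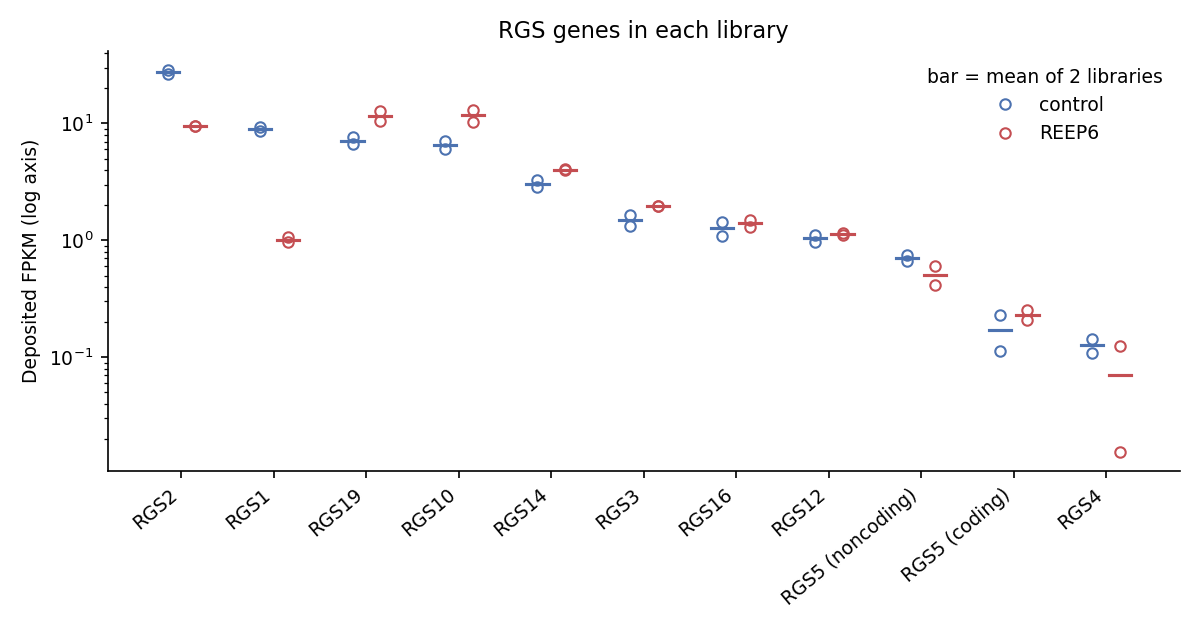
Deposited FPKM on a log axis for the 11 RGS rows, ordered by their control mean, with 1 open circle per library and a bar at the mean of 2 libraries. RGS1 and RGS2 lie far lower in the REEP6 libraries, and RGS10 and RGS19 lie higher.

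Among the R4 genes, RGS1 (ENSG00000090104, GRCh38 chromosome 1, 192575727 to 192580031, plus strand) had 8.56 and 9.31 FPKM in the controls and 0.973 and 1.06 FPKM with REEP6. Both REEP6 libraries were thus far below both controls, and libraries of a group lay close together. The counts behind these levels were 453 and 583 against 53 and 58. The mean went from 8.93 ± 0.532 to 1.02 ± 0.0611 FPKM (SD, n = 2), and the fitted change was -3.11 ± 0.16 on the log2 scale (SE), an 8.62-fold fall. Any control library exceeded any REEP6 library by 8.08 to 9.57 times in FPKM. RGS1 met the level needed for testing through the controls and 1 REEP6 library. By size of fall it stood at rank 11 of 13077 genes. The fall was 4.93-fold with limma on log2(FPKM + 1), where the added 1 is as large as the REEP6 level itself, and it passed the threshold under all 17 alternatives.

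RGS2 (chromosome 1, 192809039 to 192812283, plus strand), known for its preference for the Gq class of alpha subunits, was the most abundant RGS gene of the controls. It had 26.3 and 28.7 FPKM in the controls and 9.59 and 9.50 FPKM with REEP6, and the groups did not overlap. Its mean went from 27.5 ± 1.67 to 9.55 ± 0.0593 FPKM (SD, n = 2), and the fitted change was -1.50 ± 0.107 on the log2 scale (SE), a 2.83-fold fall. RGS2 also passed under all 17 alternatives. The ratio of RGS2 to RGS1 in FPKM was 3.08 in each control library and 9.86 and 8.97 in the REEP6 libraries, so RGS1 fell further than RGS2 in both.

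The other R4 genes were low in FPKM. RGS3, whose longer forms carry a PDZ domain, had 1.65 and 1.33 FPKM in the controls and 1.98 and 1.95 FPKM with REEP6. Its counts, 293 and 280 against 361 and 358, exceeded those of RGS10 and RGS19 in every library, so its low FPKM reflects the gene length used. Its FPKM groups did not overlap, but the log2 fold change of 0.43 ± 0.142 (SE) just missed the threshold (edgeR adjusted p 0.0542). It passed under 6 of 16 alternatives, among them robust fitting (0.43), quantile normalization (0.45) and no filter (0.44). Without control replicate 1 the log2 fold change was 0.58. RGS16 had 1.44 and 1.08 FPKM in the controls and 1.31 and 1.49 FPKM with REEP6 on 40 to 48 counts per library, so its groups overlapped (log2 fold change 0.18 ± 0.304 SE).

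RGS4 and RGS5 were too low to be tested. RGS4, best known from brain, had 9 and 8 control counts against 1 and 8 in the REEP6 libraries, at most 0.145 FPKM. The protein-coding RGS5 entry (ENSG00000143248) had 10 and 24 control counts against 23 and 19, and its non-coding namesake (ENSG00000232995) 31 and 41 against 29 and 20. The 2 RGS5 entries overlap each other and the mitotic kinetochore gene NUF2, which had 842 to 1179 counts. Reads of the locus may therefore have been divided, shared or left uncounted. RGS1 and RGS2 themselves lie opposite a lincRNA, AL390957.1, which had 7 to 10 counts.

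In the R12 family RGS10 (chromosome 10, 119499828 to 119542708, minus strand), a short protein that acts on Gi alpha subunits, had 7.08 and 6.09 FPKM in the controls and 10.4 and 13.1 FPKM with REEP6. Both REEP6 libraries were above both controls, and they differed from each other more than the controls did. The mean went from 6.59 ± 0.7 to 11.7 ± 1.92 FPKM (SD, n = 2), which is 0.86 ± 0.187 on the log2 scale (SE) or a 1.82-fold rise. Its call ended without REEP6 replicate 2, where the log2 fold change was 0.69.

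RGS14, which carries a GoLoco motif that holds Gi alpha in its GDP-bound form, had 2.85 and 3.27 FPKM in the controls and 4.04 and 4.02 FPKM with REEP6. Its groups did not overlap, and the log2 fold change of 0.42 ± 0.162 (SE) did not pass. RGS12, a large scaffold of the same family, had 1.11 and 0.975 FPKM in the controls and 1.15 and 1.11 FPKM with REEP6, with a log2 fold change of 0.15 ± 0.155 (SE). Its groups missed each other by less than the spread between the controls.

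RGS19 (chromosome 20, 64073181 to 64079988, minus strand), the RZ member, had 6.64 and 7.62 FPKM in the controls and 10.5 and 12.9 FPKM with REEP6. Its groups did not overlap. The mean went from 7.13 ± 0.696 to 11.7 ± 1.69 FPKM (SD, n = 2), which is 0.73 ± 0.16 on the log2 scale (SE) or a 1.66-fold rise, and it passed under all 17 alternatives. Over the 8 tested RGS genes, the groups did not overlap in 7: the REEP6 libraries were on the higher side in 5 and on the lower side in 2. Over all genes tested, 63.5% had groups that did not overlap, 28.2% higher and 35.3% lower.

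**Figure D2:**
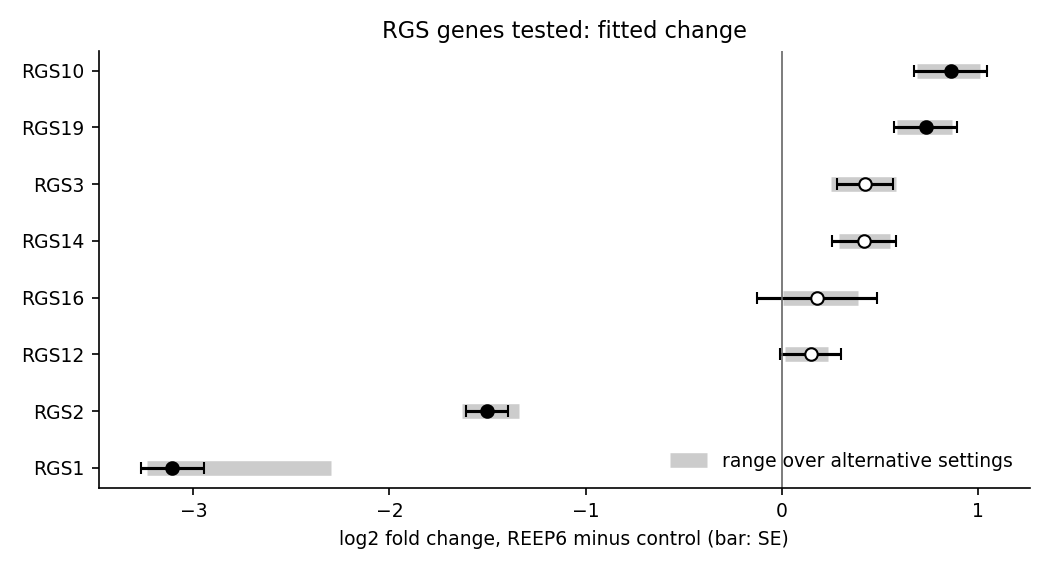
Fitted log2 fold change (REEP6 minus control) of the 8 RGS genes tested, with the standard error as a bar, filled points for genes past the adjusted p of 0.05, and grey bands for the range over the alternative settings. RGS1 is at -3.11 and RGS2 at -1.50, while RGS10 and RGS19 are at 0.86 and 0.73, and no band crosses 0.

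The order of the levels in FPKM changed as well. Order, sums and shares over different genes depend on the gene lengths behind the deposited FPKM, while fold changes of 1 gene do not. In counts RGS1 had 453 and 583 in the controls and RGS10 114 and 116, a wider gap than in FPKM. By FPKM, RGS2 was followed in the controls by RGS1, then by RGS19 and RGS10, whose ranges overlapped, then by RGS14. With REEP6 the first places went to RGS10 and RGS19, whose ranges overlapped, followed by RGS2 and RGS14, while RGS1 stood at position 8, below RGS12. In the controls the ranges of RGS3 and RGS16 overlapped, as did those of RGS16 and RGS12.

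The summed level of the 11 rows was 56.6 and 59.5 FPKM in the controls and 40.8 and 45.8 FPKM with REEP6. RGS1 and RGS2 together gave 34.9 and 38.0 FPKM of the control sums and 10.6 FPKM in each REEP6 library. The sum of the remaining 9 rows went from 21.7 and 21.5 FPKM to 30.2 and 35.3 FPKM, and of these rows RGS10 and RGS19 passed the threshold. The R4 family held 68.8% and 69.8% of the summed FPKM in the controls and 36.1% and 32.2% with REEP6. RGS10 alone went from 12.5% and 10.2% to 25.5% and 28.6%.

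**Figure D3:**
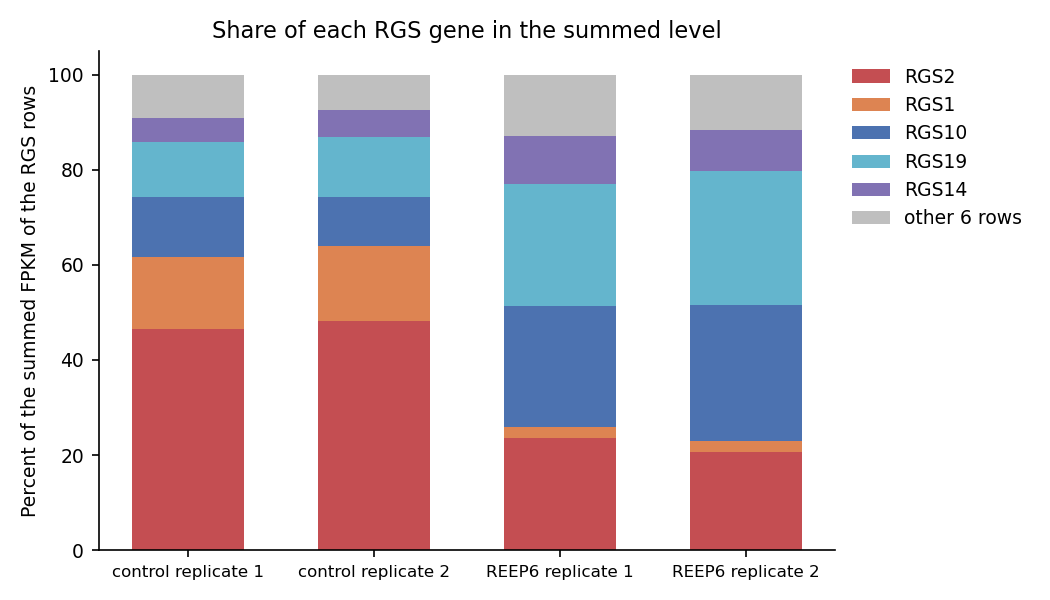
Percent of the summed FPKM of the 11 RGS rows held by each gene, 1 stacked bar per library. RGS2 holds 46.6% and 48.3% in the controls and 23.5% and 20.7% in the REEP6 libraries.

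RGS1 and RGS2 lie 229 kb apart on chromosome 1, in a cluster with RGS18, RGS21 and RGS13, so the protein-coding genes within 1 Mb of RGS1 were read as well. RGS18 and RGS21 had 0 counts in every library, which allows up to 3 counts, or 0.197 to 0.233 CPM, and RGS13 had 2 counts in all. Beyond RGS2 the next gene with reads was UCHL5, a proteasome-bound deubiquitinase, 432.2 kb from RGS1, which did not pass (log2 fold change -0.24 ± 0.0902 SE). TROVE2, the gene of the Ro60 RNA-binding protein, fell (-0.40 ± 0.0889 SE, edgeR adjusted p 0.0114), as did CDC73, a subunit of the PAF1 complex (-0.32 ± 0.0964 SE, edgeR adjusted p 0.0388), and the glutaredoxin gene GLRX2 did not pass (-0.31 ± 0.12 SE). The TROVE2 call ended without REEP6 replicate 1 (-0.35) and with a GC correction (-0.12). The CDC73 call ended under 8 of 17 alternatives, among them the fits without control replicate 2 or REEP6 replicate 1 (each -0.24), DESeq2 (-0.30) and a GC correction (-0.02), a correction that also turned UCHL5 (0.05) and GLRX2 (0.01). AL136454.1 had 0 counts in all libraries and B3GALT2 7 to 11, so neither was tested.

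**Figure D4:**
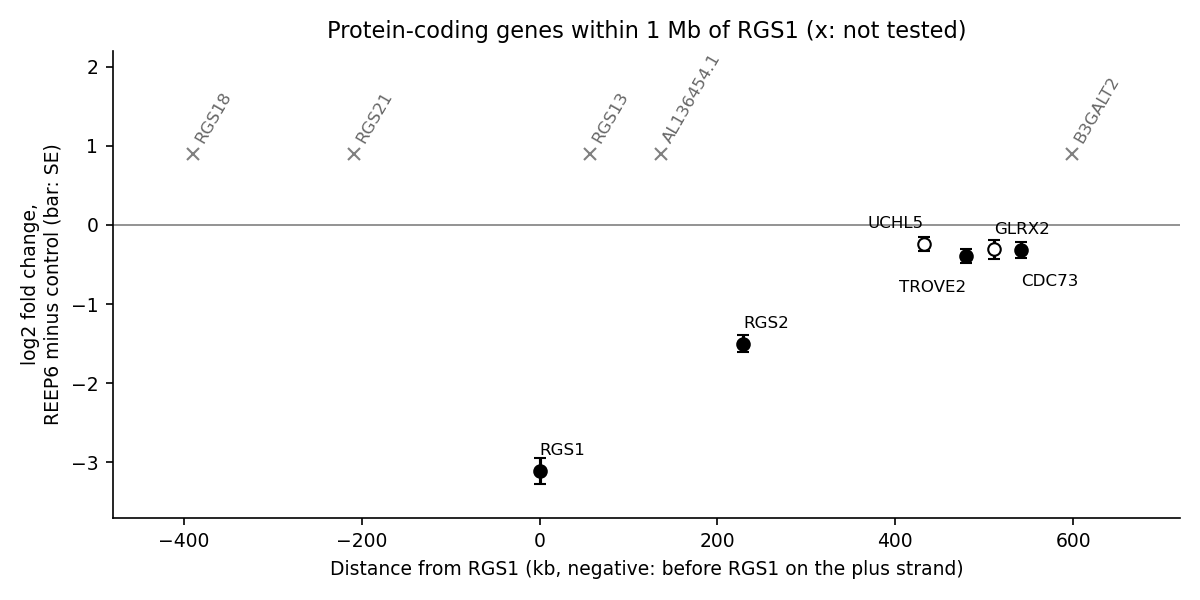
Fitted log2 fold change (REEP6 minus control, bars SE) of protein-coding genes within 1 Mb of RGS1 against their distance from RGS1 in kb, with filled points for genes past the threshold and crosses for genes not tested. The genes tested beyond RGS2 lie between -0.24 and -0.40, far above RGS1 at -3.11 and RGS2 at -1.50.

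Across the 4 libraries, 4 of the genes whose centred log2 CPM lay closest to those of RGS1 were DIO2, a deiodinase gene (root mean square distance 0.19), AKR1C1, an aldo-keto reductase gene that can share reads with its near-identical paralogs (0.24), the proteoglycan gene LUM (0.28) and the cadherin gene CDH12 (0.33). DIO2 had 8.01 and 8.35 FPKM in the controls and 0.938 and 0.732 FPKM with REEP6, a level and a fall near those of RGS1. With 4 libraries in 2 groups, this likeness amounts to a fall of similar size. DIO2 and CDH12 (0.752 and 0.431 FPKM with REEP6) met the level needed for testing only through the controls, so the filter favoured a fall there.

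Markers of cell types known for RGS genes were read beside these results. Of 14 leukocyte markers 1, LYZ, was tested and did not pass, the list summed to 1.85 and 3.40 FPKM in the controls and 2.68 and 2.61 FPKM with REEP6, and CD3D, CD2, MS4A1, CD68 and TYROBP had 0 counts in every library. PTPRC, the CD45 gene, was at most 0.036 FPKM. Of 9 fibroblast markers 3 were tested, and all 3, LUM, POSTN and COL3A1, fell, beside 14.2% of all genes tested. POSTN met the level needed for testing only through the controls, so the filter favoured a fall there. It had 1.57 and 1.70 FPKM in the controls and 0.456 and 0.289 FPKM with REEP6. The 9 markers summed to 34.5 and 32.7 FPKM in the controls and 17.2 and 16.9 FPKM with REEP6. Of the other 6, DCN, FAP, THY1 and COL1A2 lay between 0 and 0.0418 FPKM and COL1A1 between 0.245 and 0.396 FPKM, while PDGFRA had 0.663 and 0.709 FPKM in the controls and 0.986 and 1.06 FPKM with REEP6. The part of these markers in the RGS1 result was not tested. Pericyte and smooth muscle markers summed to between 8.51 and 8.87 FPKM in all 4 libraries, and 3 of 10 were tested. PDGFRB was lower and NOTCH3 higher, 2 calls among 3 beside 25.0% of all genes tested, and CSPG4 did not pass. NOTCH3 met the level needed for testing only through the REEP6 libraries, so the filter favoured a rise there. It had 0.588 and 0.504 FPKM in the controls and 1.13 and 1.18 FPKM with REEP6. ABCC9 and KCNJ8 were at most 0.106 FPKM. Endothelial markers had 0 of 6 tested and summed to 0.548 and 0.342 FPKM in the controls and 0.178 and 0.146 FPKM with REEP6.

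Of 20 other genes with an RGS domain or an RGS name, 7 were tested, 2 fell and 0 rose (28.6% called, beside 25.0% of all genes). Their log2 fold changes lay between -0.55 and 0.19, with a median of -0.04. RGS17, an RZ relative of RGS19, had 3.75 and 3.50 FPKM in the controls and 3.57 and 3.62 FPKM with REEP6, so its groups overlapped at a log2 fold change of 0.015 ± 0.117 (SE), which became -0.12 with FPKM scaled to equal sums and 0.42, past the threshold, with a GC correction. RGS7, of the neuronal R7 family, had 1.21 and 0.996 FPKM in the controls against 1.47 and 0.993 FPKM (0.19 ± 0.331 SE). The sorting nexins with an RGS domain, SNX13 and SNX14, fell, by 0.55 (edgeR adjusted p 0.00253) and 0.33 (edgeR adjusted p 0.0371) on the log2 scale. The SNX13 call ended with a GC correction (-0.24), and that of SNX14 ended under 8 of 17 alternatives, among them the GC correction (-0.03) and the fits without control replicate 2 (-0.26) and without REEP6 replicate 1 (-0.25). With the GC correction the list had 1 call higher and 0 lower. AKAP10 (-0.15 ± 0.1 SE), AXIN1 (0.05 ± 0.115 SE) and SNX25 (-0.04 ± 0.148 SE) did not pass. RGS7BP had 0 counts in all libraries, and RGS20 was just under the filter with 32 to 48 counts per library.

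The wider G protein pathway was read from 6 lists with 131 genes, of which 71 were tested, 12 rose and 10 fell (31.0% called, beside 25.0% of all genes), with a median log2 fold change of 0.08 against -0.01 for all genes. With FPKM scaled to equal sums the split was 6 higher and 13 lower. These lists were also drawn up with earlier results of the comparison known, so nothing is read from the counts called in each.

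Of the alpha subunit genes, a class that holds the direct partners of RGS proteins, 8 were tested, 2 rose and 2 fell (50% called, beside 25.0% of all genes). GNAI1, a Gi subunit, went from 5.71 ± 0.356 to 3.55 ± 0.0126 FPKM (SD, n = 2). It fell by 0.66 on the log2 scale (edgeR adjusted p 0.00126). GNA13, another alpha subunit gene, fell by 0.43 (edgeR adjusted p 0.0132). GNAI2, a more abundant Gi gene, rose by 0.28 (edgeR adjusted p 0.033), and GNAS, the Gs gene that stimulates adenylyl cyclase, by 0.30 (edgeR adjusted p 0.0322). With FPKM scaled to equal sums, both rises lost their call. The GNAI1 call held under all 17 alternatives, while those of GNAI2 and GNAS ended under 9 each. Without single libraries the log2 fold change at which a call ended was -0.32 (control replicate 2) and -0.36 (REEP6 replicate 1) for GNA13, 0.27 (control replicate 1), 0.24 (REEP6 replicate 1) and 0.35 (REEP6 replicate 2) for GNAS, and, over all 4 libraries in turn, 0.30, 0.28, 0.26 and 0.29 for GNAI2. The GNA13 call also ended with a GC correction (-0.21).

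Among beta and gamma subunit genes 11 were tested, 1 rose and 2 fell (27.3% called, beside 25.0% of all genes). The gamma genes GNG2 and GNG11 fell by 0.47 (edgeR adjusted p 0.00419) and 0.39 (edgeR adjusted p 0.00922) on the log2 scale, and the beta gene GNB1 was higher by 0.32 (edgeR adjusted p 0.0287). The GNG11 call ended without REEP6 replicate 1 (-0.34) and with a GC correction (-0.21). The GNB1 call ended under 7 of 17 alternatives, among them the fits without control replicate 2 (0.31) and without REEP6 replicate 1 (0.23).

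Receptor kinases and arrestins, which switch off receptors, had 7 genes tested, with 2 higher and 1 lower (42.9% called, beside 25.0% of all genes). ARRB2, the beta-arrestin 2 gene, rose 1.67-fold, from 5.36 ± 0.0366 to 8.80 ± 1.21 FPKM in SD over 2 libraries each (edgeR adjusted p 0.00396). The arrestin-domain gene ARRDC3 fell 1.48-fold (edgeR adjusted p 0.00327). GRK6 rose 1.24-fold (edgeR adjusted p 0.0328), a call that ended under 9 of 17 alternatives, among them the fits without control replicate 2 (log2 fold change 0.30), REEP6 replicate 1 (0.29) and REEP6 replicate 2 (0.33). Of 10 other modulators tested, 1 passed (10% called, beside 25.0% of all genes). This was CCDC88A, the gene of the G alpha-binding protein GIV, which fell by 0.51 on the log2 scale (edgeR adjusted p 0.00288). The CCDC88A call ended with a GC correction (-0.20).

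Effector genes had 15 tested, with 3 higher and 2 lower (33.3% called, beside 25.0% of all genes). The catalytic subunits of protein kinase A moved apart: PRKACA rose 1.46-fold (edgeR adjusted p 0.00354), with means of 14.0 ± 0.347 and 20.0 ± 1.48 FPKM (SD). PRKACB fell 1.76-fold (edgeR adjusted p 0.00185), with means of 10.1 ± 1.29 and 5.64 ± 0.598 FPKM (SD). The adenylyl cyclase gene ADCY3 rose 1.68-fold (edgeR adjusted p 0.00541), and PLCB1, a phospholipase C that Gq activates, fell 1.47-fold (edgeR adjusted p 0.0079). The PLCB1 call ended with limma on either FPKM scale and with a GC correction. ADCY9, named after its value was seen because it completes the count, rose by 0.66 on the log2 scale (edgeR adjusted p 0.0256). Its call ended under 6 of 16 alternatives, among them the fits without control replicate 2 (0.50) and without REEP6 replicate 2 (0.62).

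Receptor genes had 20 of 50 tested, with 4 higher and 2 lower (30% called, beside 25.0% of all genes). The neurotensin receptor gene NTSR1 had 11.3 and 11.6 FPKM in the controls and 26.7 and 28.8 FPKM with REEP6 (log2 fold change 1.30 ± 0.091 SE, edgeR adjusted p 7.3e-05). The adenosine A1 receptor gene ADORA1 had 2.25 and 2.27 FPKM in the controls and 6.13 and 5.58 FPKM with REEP6 (1.40 ± 0.151 SE, edgeR adjusted p 0.000574). ADGRE5, an adhesion receptor also known as CD97, rose 1.48-fold (edgeR adjusted p 0.00325). The bradykinin receptor gene BDKRB2 fell 1.91-fold (edgeR adjusted p 0.0144), a call that ended with limma on either FPKM scale. BDKRB2 met the level needed for testing only through the controls, so the filter favoured a fall there. It had 1.48 and 1.19 FPKM in the controls and 0.728 and 0.637 FPKM with REEP6. The remaining 2 calls, named after their values were seen, were the orphan receptor gene GPRC5A (0.38, edgeR adjusted p 0.0391) and the thrombin receptor gene F2R (-0.35, edgeR adjusted p 0.0211). The GPRC5A call ended under 9 of 17 alternatives, among them the fits without control replicate 1 (0.24) and without REEP6 replicate 2 (0.27). The F2R call ended under 5 of 17, among them the fits without control replicate 2 (-0.26) and without REEP6 replicate 1 (-0.29).

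**Figure D5:**
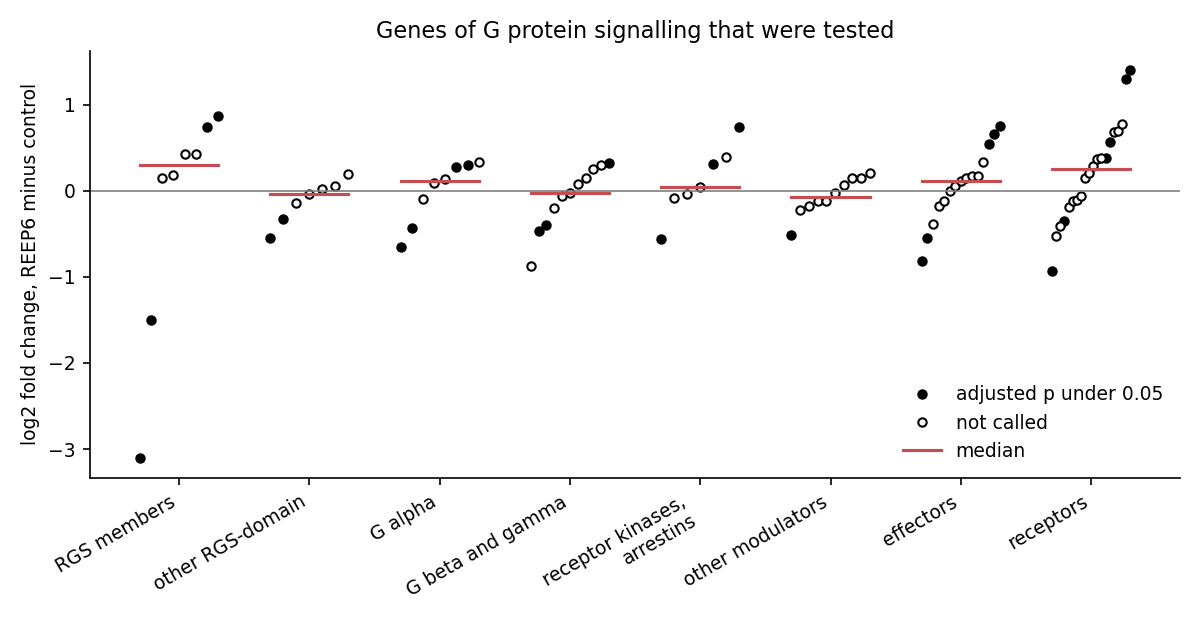
Fitted log2 fold change (REEP6 minus control) of the tested RGS genes and of the tested genes of 7 other lists of G protein signalling, 1 point per gene, filled where the adjusted p was under 0.05, with a red bar at each list's median. RGS1 at -3.11 and RGS2 at -1.50 are the lowest points shown, and ADORA1 at 1.40 is the highest.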

How the data were processed

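The authors deposited, for each of the 4 libraries, a raw count and an FPKM value per gene, per the file headers. The submitters' processing notes name HISAT2, HTSeq 0.13.5 and GRCh38, without roles. For annotation, strandedness and multi-mapping, settings were not given in the sources used here, and overlapping genes may share or lose reads. The deposited FPKM rests on the same counts and each library's summed count, since 1 gene length reproduced 100% of 29161 genes within a relative tolerance of 0.0001. All 51103 identifiers matched GENCODE release 29, the source of coordinates. Promoters came from RefSeq (GRCh38.p14) and matched 10 of 10 RGS genes.

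Groups and replicate numbers were read from the titles. Libraries of a group differed by more than counting noise (chi-square per degree of freedom 9.58 for controls and 5.68 for REEP6), so none was treated as a repeat deposit of another. Whether they were separate cultures is not stated. Genes with at least 1 FPKM in at least 2 libraries (13077) were fitted with edgeR 4.0.16 (TMM scaling, quasi-likelihood, 1 group term, 2 residual degrees of freedom, R 4.3.3), two-sided, with Benjamini-Hochberg adjustment over all genes tested and a threshold of 0.05. The standard error is the log2 fold change over the square root of F. An exact permutation test was not used, since 2 against 2 libraries cannot pass. The fit was tested on simulated data for 13077 genes: at 1.5-fold it recovered 65.7% of 67 genes, at 2-fold 86.6% of 67 and at 3-fold 97% of 66. False calls were 21 among 187, a larger share than the threshold of 0.05. The changed genes were drawn only from those above a count floor and were far fewer than the 25.0% called in the data. Recovery below that floor was not measured.

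The members and lists were chosen with earlier results of these data known. Library totals were 12856256 and 15208629 (control) and 13236417 and 13302967 (REEP6). Named besides the members were REEP6, the tested genes with an RGS domain, up to 4 called genes with the smallest p per pathway list, genes within 1 Mb of RGS1, and the 5 protein-coding genes whose centred log2 CPM (prior count 2) lay nearest to RGS1, of which 1 is not reported here. Alternatives were DESeq2 1.42.0, limma 3.58.1 on log2(FPKM + 1) and log2(FPKM + 0.1), other scalings, quantile normalization, no filter, at least 5 FPKM, no abundance trend, robust fitting, a GC correction (loess, span 0.3), each library left out, and a replicate block.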

Additional observations from a re-analysis of the deposited data

How the results depend on the processing

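Over the alternatives, the 8 tested RGS genes gave 132 further fits, of which 124 kept both direction and side of the threshold, 1 lost the call (RGS10), 7 gained one (RGS3 in 6 and RGS14 in 1) and 0 turned. Calls among the RGS genes ranged from 3 to 5 without single libraries. The number of genes called over the whole table, 3275, became 1906 with limma on log2(FPKM + 1) and 1830 on log2(FPKM + 0.1), and 22 pathway genes became 13 on either scale; without single libraries they ranged from 2212 to 3119 and from 15 to 22. With the replicate block 6022 genes, 6 RGS genes (RGS3 and RGS14 added) and 36 pathway genes passed. The titles share only a number: deviations of same-numbered libraries correlated at 0.27 across genes, and 2 pairs do not show that they were paired. The other genes followed across the alternatives, ADCY9, F2R and GPRC5A among them, gave 656 fits (554 with the same call, 84 losing and 5 gaining one), of which 13 turned the direction, all of genes without a call: RGS17 with library totals (-0.012), equal FPKM sums (-0.12), limma on log2(FPKM + 1) (-0.0095) and log2(FPKM + 0.1) (-0.012), and from -0.0087 to 0.063 without single libraries; RGS7 from -0.13 to 0.45 without single libraries; AXIN1 with equal FPKM sums (-0.083), a GC correction (-0.030), and from -0.10 to 0.19 without single libraries; SNX25 with a GC correction (0.17), and from -0.25 to 0.15 without single libraries; UCHL5 (0.052) and GLRX2 (0.013) with a GC correction. The cause was not tested. Counts under 50 per library limit RGS4, RGS5 and RGS16.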
